A study of Homo sapiens with 20 samples.

Results

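MAX is the shared partner of a network of basic helix-loop-helix leucine zipper (bHLHZ) transcription factors, and the 9 genes described here are MAX itself and the partners that compete with MYC for it or connect it to nutrient sensing: MXD1, MXD3, MXD4, MXI1, MNT, MGA, MLX and MLXIP. They were selected by gene name, and no measured value entered the rule. All 9 were found among the 60719 genes of the deposited table, and all 9 were among the 16327 genes with enough counts to be tested.

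On GRCh38 the GENCODE v44 annotation places MAX (ENSG00000125952) at chr14:65006174-65102695 (minus strand), MXD1 (ENSG00000059728) at chr2:69897688-69942945 (plus strand), MXD3 (ENSG00000213347) at chr5:177301461-177312757 (minus strand). It places MXD4 (ENSG00000123933) at chr4:2247432-2262109 (minus strand), MXI1 (ENSG00000119950) at chr10:110207605-110287365 (plus strand), MNT (ENSG00000070444) at chr17:2384073-2401104 (minus strand). The remaining genes are MGA (ENSG00000174197) at chr15:41621134-41773081 (plus strand), MLX (ENSG00000108788) at chr17:42567072-42573239 (plus strand) and MLXIP (ENSG00000175727) at chr12:122078756-122147344 (plus strand).

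The RNA libraries come from Jurkat, an established line of human leukemic T cells, in its WT form and as CD47- cells (JinB8), a single somatic mutant line derived from it that lacks CD47, the receptor for thrombospondin-1 (TSP1). Each line gave 10 libraries. Of these, 1 was untreated and harvested at 1 h. The other 9 were harvested at 1, 3 or 6 h, with 1 library per time for plate-bound antibodies against CD3 and CD28 (CD3+CD28), for these antibodies plus TSP1 (CD3+CD28+TSP1) and for TSP1 without antibodies (TSP1). TSP1 was used at 1 μg/mL and anti-CD28 at 4 μg/mL, and all cells were kept in serum-free medium. Each condition was sequenced once, no untreated library was analysed at 3 or 6 h, and the labels do not say whether the libraries of a line came from separate cultures, so the p-values measure the spread between these libraries only. JinB8 is 1 line, so loss of CD47 and any other change that this line carries cannot be told apart. Likewise, time after plating and time in the serum-free medium cannot be told apart, because every treatment shares both.

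Library totals ranged from 16107921 to 31737616 counts. Levels are given in CPM, the counts divided by a library total that was scaled by the TMM method. Differences were tested on the log2 scale with the edgeR quasi-likelihood test, with Benjamini-Hochberg adjustment across the whole set of tested genes, and a gene was called when its adjusted p was under 0.05. CD47 mRNA was between 253 and 372 CPM in WT and between 124 and 165 CPM in CD47- libraries, so the mutant line still made the transcript. The summed level of 12 T cell markers was 2280 to 3200 CPM in WT and 1860 to 2970 CPM in CD47- libraries, but its members differed between the lines in opposite directions. TRAC, of the T cell receptor alpha chain, was 122 to 301 CPM in WT and 15 to 28.7 CPM in CD47- libraries, TRBC1 was 724 to 1090 and 333 to 702 CPM, and CD2 was 35.1 to 50.8 and 79.5 to 143 CPM. Their part in the responses to CD3 antibodies was not tested. Of the B cell markers, CD79A was 33.9 to 53.9 CPM in WT and 4.15 to 9.97 CPM in CD47- libraries and CD79B was at most 3.56 CPM, while MS4A1, PAX5 and CD22 stayed at or below 0.352 CPM. Myeloid, erythroid, epithelial and fibroblast markers summed to at most 2.02, 8.67, 3.78 and 13 CPM, and their part in the results was not tested. One library stood apart for several of these genes, the CD3+CD28+TSP1 library of CD47- cells at 3 h. It was also the shallowest, and some results that rest on it are given with and without it.

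As background, MAX forms dimers with MYC, MYCN or MYCL, and these dimers bind the E-box CACGTG and activate genes of growth and ribosome production. MXD1, MXD3, MXD4 and MXI1 form dimers with MAX on the same element and repress through the SIN3-HDAC corepressor, and MNT, a larger and more widely expressed repressor, does likewise. MGA is a very large protein that carries a T-box as well as a bHLHZ domain and anchors the Polycomb complex PRC1.6. MLX is a second hub, which pairs with MLXIP (MondoA) or MLXIPL (ChREBP) to switch on genes such as TXNIP when glucose phosphates rise, and also with MXD1, MXD4 and MNT.

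The E-box itself is present in the promoters of some of these genes, which is why those stretches are shown. In RefSeq promoters on GRCh38.p14, taken from 250 bases before to 50 bases after each annotated start, CACGTG, which reads the same on both strands, was found in 1 promoter each of MXD4, MNT and MLX, and in none of those of MAX, MXD1, MXD3, MXI1, MGA and MLXIP. It occurred in 7.26% of 35116 RefSeq promoters of the same length. The 60-base windows lie before the first annotated base of each gene, read 5′ to 3′ on the strand of the gene, and the capitals mark the E-box. Counted from the RefSeq start that defines each promoter, which need not be the first annotated base of the gene, the first base of the E-box lies at -238 in MXD4 (window chr4:2262300-2262359, minus strand), at -193 in MNT (chr17:2401221-2401280, minus strand) and at -50 in MLX (chr17:42567012-42567071, plus strand).
MXD4: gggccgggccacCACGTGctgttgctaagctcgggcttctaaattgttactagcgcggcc
MNT: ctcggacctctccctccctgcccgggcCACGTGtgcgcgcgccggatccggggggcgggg
MLX: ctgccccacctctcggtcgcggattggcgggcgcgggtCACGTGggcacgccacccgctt
A match says only that these letters are present, and binding was not measured.

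The levels of the 9 genes were compared per transcript length, in TPM, a scale on which each isoform count is divided by its transcript length. In WT cells MAX was highest with a mean of 34.1 ± 3.19 TPM (SD, n = 10), followed by MLX with 31.6 ± 3.58 TPM. MAX was above MLX in 7 of 10 WT libraries, so their order is not separated by the spread. MGA followed with 21.4 ± 3.53 TPM and MXD3 with 17.9 ± 7.78 TPM. MLXIP (7.01 ± 1.48 TPM), MXI1 (6.18 ± 2.55 TPM), MXD4 (5.23 ± 1.19 TPM), MNT (3.95 ± 0.637 TPM) and MXD1 (3.66 ± 1.93 TPM) overlapped with their neighbours in this order. In CD47- cells the first places were exchanged, with MLX at 49 ± 3.96 TPM above MAX at 40.5 ± 3.32 TPM in 10 of 10 libraries. MGA (27.2 ± 4.48 TPM), MXD3 (12.1 ± 7.09 TPM), MLXIP (10.7 ± 3.82 TPM), MXI1 (7.17 ± 2.5 TPM), MXD4 (5.58 ± 0.907 TPM), MXD1 (3.88 ± 1.42 TPM) and MNT (3.64 ± 1.28 TPM) came next. MNT, MXD1, MXD4 and MXI1 thus had the 4 lowest means in both lines.

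**Figure D1:**
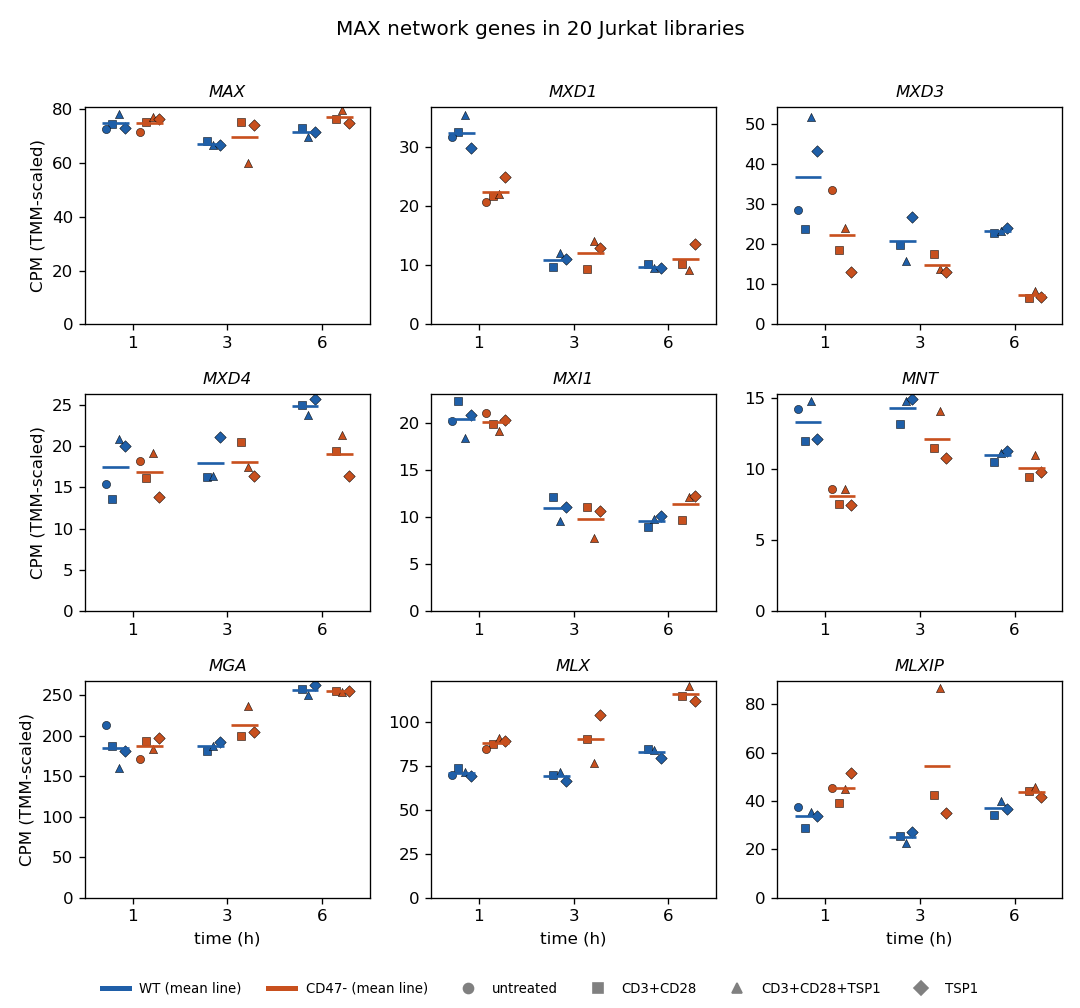
Level of each of the 9 genes in every library, in CPM on an axis that starts at 0, against time in h, with WT in blue, CD47- in orange, the treatment as the shape of the point and the mean of each line and time as a bar. MXD1 and MXI1 were higher in every 1 h library than in any later library, MLX and MLXIP were higher in CD47- than in WT cells at each time, and the MLXIP value of 86.5 CPM belongs to the CD3+CD28+TSP1 library of CD47- cells at 3 h.

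The comparison of the lines asked which of these genes differ between WT and CD47- cells. MLX and MLXIP were higher in CD47- cells, and MNT and MXD3 were lower. These are 4 of 9 genes, beside 40.4% of all genes tested (19.8% higher and 20.6% lower), so the share is close to the background. No gene of the 9 had WT and CD47- ranges that stayed apart over all 20 libraries, beside 11.5% of all genes.

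MLX in CD47- libraries was between 84.9 and 91.2 CPM at 1 h, between 76.9 and 104 CPM at 3 h and between 112 and 121 CPM at 6 h. In WT libraries it was between 69.4 and 74.2 CPM at 1 h, between 66.4 and 71.9 CPM at 3 h and between 79.7 and 84.8 CPM at 6 h. The lines did not overlap at any time, and CD47- was higher in 10 of 10 pairs of libraries matched by treatment and time. The log2 fold change between the lines was 0.39 ± 0.0817 (SE), a 1.31-fold difference with an adjusted p of 0.000519.

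MLXIP, the glucose-sensing partner of MLX, was 47.6 ± 14.3 CPM in CD47- and 32.1 ± 5.78 CPM in WT cells (SD, n = 10 each). In 10 of 10 matched pairs the CD47- library was the higher, and the pair differences in log2 CPM ran from 0.173 to 1.92. Its log2 fold change was 0.57 ± 0.139 (adjusted p = 0.00216). The pair with the highest difference holds the library that stood apart, and without that library the log2 fold change was 0.45.

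MNT was 9.89 ± 2.03 CPM in CD47- and 12.9 ± 1.7 CPM in WT cells and in 10 of 10 matched pairs the CD47- library was the lower. This gave a log2 fold change of -0.39 ± 0.113 (adjusted p = 0.00866). The difference was largest at 1 h, where the mean pair difference was -0.687 ± 0.0509 (SD, 4 pairs). At 3 h it was -0.237 ± 0.199 and at 6 h -0.119 ± 0.0984 (3 pairs each).

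MXD3, the member of the MXD group that is expressed in proliferating rather than resting cells, was the most variable of the 9. It was 15.6 ± 8.37 CPM in CD47- and 28 ± 11.1 CPM in WT cells, a log2 fold change of -0.84 ± 0.269 with an adjusted p of 0.0155, and was lower in CD47- cells in 9 of 10 pairs. The exception was the untreated pair, with 33.6 CPM in CD47- and 28.6 CPM in WT cells. At 6 h the lines were well apart, with 6.64, 8.31 and 6.95 CPM in the CD3+CD28, CD3+CD28+TSP1 and TSP1 libraries of CD47- cells. The same treatments gave 22.9, 23.2 and 24 CPM in WT cells.

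MAX was 74.1 ± 5.37 CPM in CD47- and 71.5 ± 3.69 CPM in WT cells, and its log2 fold change of 0.05 had an interval of ± 2 SE from -0.06 to 0.16. The other 4 genes also missed the threshold. Their log2 fold changes and intervals of ± 2 SE were -0.27 (-0.86 to 0.32) for MXD1, -0.15 (-0.38 to 0.08) for MXD4, 0.01 (-0.43 to 0.45) for MXI1 and 0.05 (-0.15 to 0.26) for MGA. MXD1 nevertheless differed between the lines at 1 h, where it was 29.8 to 35.3 CPM in WT and 20.7 to 24.8 CPM in CD47- libraries, ranges that did not overlap. At 1 h the ranges of the lines were apart for 4 of 9 genes (MXD1, MNT, MLX and MLXIP), beside 45.2% of all genes. At 6 h they were apart for 5 of 9 genes (MAX, MXD3, MXD4, MLX and MLXIP), beside 64.9% of all genes.

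**Figure D2:**
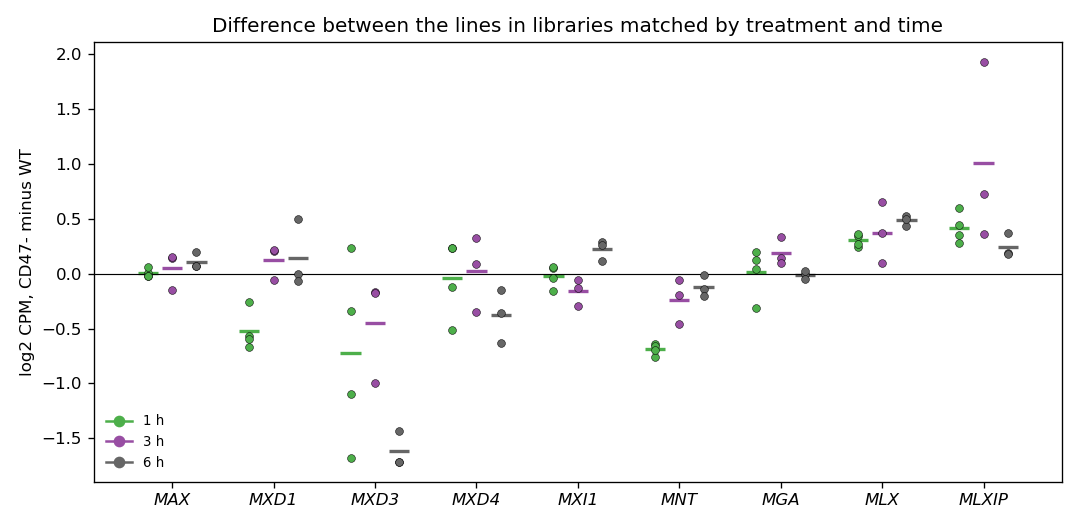
Difference in log2 CPM, CD47- minus WT, in the 10 pairs of libraries that share treatment and time, with a point for each pair, a bar for the mean at each time and a colour for each time (4 pairs at 1 h and 3 pairs each at 3 and 6 h). MLX and MLXIP lie above 0 and MNT below 0 in all 10 pairs, the MNT difference is largest at 1 h with a mean of -0.687, and that of MXD3 is largest at 6 h with a mean of -1.62.

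The time course showed the larger changes. In both lines and in each of the 3 treatments followed to 6 h, the MAX-binding repressors MXD1 and MXI1 were high at 1 h and low at 3 and 6 h. MXD1 at 1 h was 31.6, 32.4, 35.3 and 29.8 CPM in WT cells that were untreated or had CD3+CD28, CD3+CD28+TSP1 or TSP1. At 3 h the WT libraries with CD3+CD28, CD3+CD28+TSP1 and TSP1 had 9.65, 12.1 and 11 CPM, and at 6 h they had 10.2, 9.6 and 9.51 CPM. In CD47- cells the 4 libraries at 1 h had 20.7, 21.6, 22 and 24.8 CPM in the same order, those at 3 h had 9.27, 14.1 and 12.9 CPM and those at 6 h had 10.2, 9.12 and 13.6 CPM. The 1 h libraries lay above all later libraries in both lines, and the later levels of the lines overlapped.

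For MXD1 the log2 fold change at 3 h against 1 h was -1.57 ± 0.131 in WT (adjusted p = 1.61e-06) and -0.93 ± 0.131 in CD47- cells (adjusted p = 0.000126). At 6 h against 1 h it was -1.73 ± 0.132 in WT, a 3.32-fold fall with an adjusted p of 1.59e-07. In CD47- cells the fall was 2.1-fold, with a log2 fold change of -1.07 ± 0.131 and an adjusted p of 1.12e-05.

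MXI1, also known as MXD2, was 18.4 to 22.3 CPM at 1 h in WT and 19.1 to 21 CPM in CD47- libraries. It was 9.6 to 12.1 CPM and 7.73 to 11 CPM at 3 h, and 8.92 to 10.1 CPM and 9.68 to 12.2 CPM at 6 h. The 2 lines overlapped at each time, and the 1 h libraries stood above all others. The log2 fold change at 6 h against 1 h was -1.08 ± 0.13 in WT (adjusted p = 1.04e-05) and -0.8 ± 0.129 in CD47- cells (adjusted p = 0.000127). MXD1 and MXI1 were the 2 of 9 genes whose 1 h libraries did not overlap with any 3 or 6 h library when both lines were joined, beside 6.85% of all genes.

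At 3 h against 1 h, 3 of 9 genes were called in WT cells, all of them lower (MXD1, MXD3 and MXI1), beside 34.3% of all genes (16.9% higher and 17.4% lower). In CD47- cells 3 of 9 were called, beside 38% of all genes (18% higher and 20.1% lower). Of these, MXD1 and MXI1 fell and MNT rose, from 7.5 to 8.62 CPM at 1 h to 10.8 to 14.1 CPM at 3 h (log2 fold change 0.61 ± 0.0968, adjusted p = 0.000292). The 14.1 CPM came from the library that stood apart. The MNT call was kept in all 25 alternative fits, those that left out a library among them, with log2 fold changes from 0.53 to 0.67. Without the CD3+CD28+TSP1 library of CD47- cells at 3 h, 5 of 9 genes were called in WT cells at 3 h, MAX (-0.16) and MLXIP (-0.38) besides those 3, while the share of all genes called rose to 43.3%.

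At 6 h against 1 h, 7 of 9 genes were called in WT cells, beside 50.5% of all genes (25.7% higher and 24.8% lower). MXD1, MXI1, MXD3 and MNT were lower and MGA, MXD4 and MLX higher. In CD47- cells 6 of 9 were called, beside 53% of all genes (26% higher and 27% lower). There MXD1, MXI1 and MXD3 were lower and MGA, MLX and MNT higher. The 1 h and 6 h ranges were apart for 6 of 9 genes in WT (beside 56.5% of all genes) and for 6 of 9 in CD47- cells (beside 61.1%).

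MGA rose by 6 h in both lines. In the CD3+CD28, CD3+CD28+TSP1 and TSP1 libraries at 6 h it was 258, 250 and 263 CPM in WT and 256, 254 and 255 CPM in CD47- cells. At 1 h the WT libraries ranged from 160 to 213 CPM and the CD47- libraries from 172 to 198 CPM. The log2 fold changes at 6 h were 0.54 ± 0.0743 (adjusted p = 3.32e-05) in WT and 0.41 ± 0.0742 (adjusted p = 0.000336) in CD47- cells, while those at 3 h, 0.09 and 0.16, were not called in edgeR. In limma voom the 3 h change in CD47- cells was called (0.29, adjusted p = 0.00939), and the CD47- ranges at 1 and 3 h (200 to 237 CPM at 3 h) did not overlap. The 237 CPM came from the library that stood apart, and the other CD47- libraries at 3 h had 200 and 205 CPM. The limma voom result without that library is not given here.

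MXD3 was scattered at 1 h, with 28.6, 23.7, 51.9 and 43.3 CPM in the untreated, CD3+CD28, CD3+CD28+TSP1 and TSP1 libraries of WT cells. Those of CD47- cells had 33.6, 18.6, 24 and 13.2 CPM. The order of the treatments was not shared by the lines. The log2 fold change at 6 h was -0.73 ± 0.221 in WT (adjusted p = 0.0135) and -1.32 ± 0.241 in CD47- cells (adjusted p = 0.000373). The WT call was lost when the 1 h CD3+CD28+TSP1 library or either of the 6 h libraries with TSP1 was left out, with log2 fold changes of -0.40, -0.67 and -0.62. The WT call at 3 h (log2 fold change -0.91 ± 0.224, adjusted p = 0.0065) was lost without the 3 h CD3+CD28+TSP1 library, at -0.62.

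MXD4, a repressor linked to resting and differentiating cells, was 23.8 to 25.7 CPM in WT libraries at 6 h, against 13.6 to 20.9 CPM at 1 h. Its log2 fold change was 0.46 ± 0.128 (adjusted p = 0.00779), and the call was lost without the 1 h (0.29) or the 6 h (0.32) CD3+CD28 library. In CD47- cells it was 0.22, with an interval from -0.04 to 0.48. MLX rose at 6 h in CD47- cells by 0.38 ± 0.0823 (adjusted p = 0.00148). In WT cells its change of 0.21 ± 0.0829 was at the threshold (adjusted p = 0.0495) and was not called in DESeq2 (adjusted p = 0.0711), with upper-quartile factors (0.0506), without the low-count filter (0.15) or without any 1 of 16 libraries. MLXIP was not called at 3 or 6 h in either line in edgeR with the low-count filter and all 20 libraries. Without that filter its 3 h change in WT cells was called (-0.40, adjusted p = 0.00226). With the filter this change was called without the 3 h CD3+CD28+TSP1 library of CD47- cells. MAX stayed between 60 and 79.7 CPM over all 20 libraries, with log2 fold changes at 6 h of -0.08 (interval -0.23 to 0.07) in WT and 0.02 (-0.13 to 0.17) in CD47- cells.

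**Figure D3:**
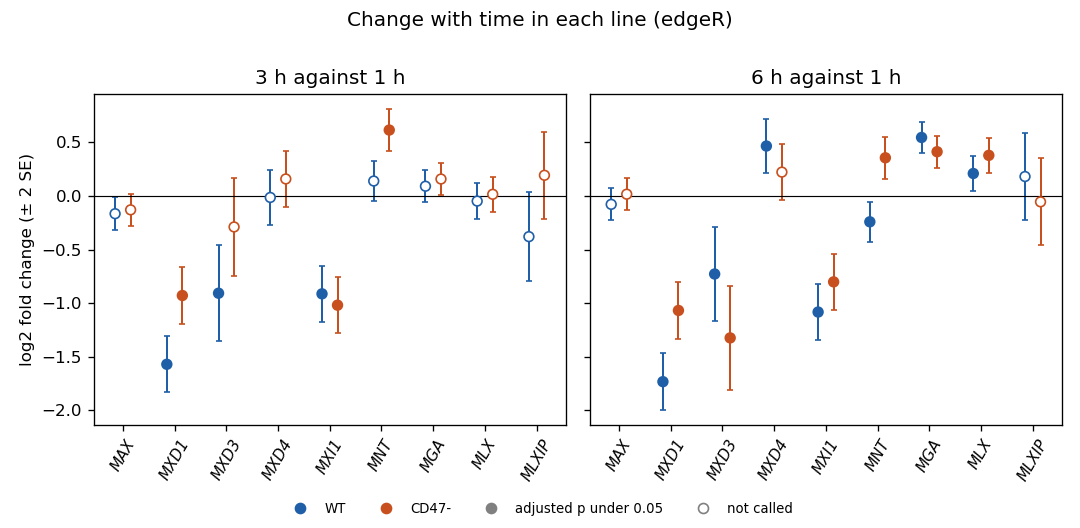
Log2 fold change of each gene at 3 h (left) and 6 h (right) against 1 h in WT (blue) and CD47- (orange) cells from the edgeR model, with bars of ± 2 SE and filled points for an adjusted p under 0.05. MXD1 and MXI1 lie below 0 at both times in both lines, MGA lies at 0.54 and 0.41 at 6 h, and MNT at 6 h lies at -0.24 in WT and 0.36 in CD47- cells.

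The difference between the lines in the time course was tested as an interaction. At 6 h against 1 h it was called for 2 of 9 genes, MXD1 and MNT, beside 16.6% of all genes. Over all genes 1055 of the 2714 called were higher, and 1398 of 2715 with upper-quartile factors. Leaving out 1 library gave between 1459 and 4273 called genes. These ends came without the 6 h TSP1 and the 3 h CD3+CD28+TSP1 library of CD47- cells. For MXD1 the fall was smaller in CD47- cells by 0.66 ± 0.184 on the log2 scale (adjusted p = 0.0259), with means of 32.2 and 9.77 CPM at 1 and 6 h in WT and of 22.3 and 11 CPM in CD47- cells. This call was lost when 1 of 8 libraries was left out, with log2 differences between 0.58 and 0.82 over all 20 omissions. Those 8 were the 1 h CD3+CD28 library, both TSP1-containing 6 h libraries and the 1 h CD3+CD28+TSP1 library of WT cells, and the 1 h CD3+CD28+TSP1 and TSP1 and 6 h CD3+CD28 and TSP1 libraries of CD47- cells.

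For MNT the directions of the gene total were opposite. It fell from 12 to 14.8 CPM at 1 h to 10.5 to 11.3 CPM at 6 h in WT cells, with a log2 fold change of -0.24 ± 0.0943 (adjusted p = 0.0463). It rose from 7.5 to 8.62 CPM to 9.46 to 11 CPM in CD47- cells, with a log2 fold change of 0.36 ± 0.0974 (adjusted p = 0.00705). The 1 h and 6 h ranges did not overlap in either line. The interaction of 0.60 ± 0.136 (adjusted p = 0.00912) was called without any 1 of the 20 libraries. The fall in WT cells alone was not called in DESeq2 (adjusted p = 0.0969), without the low-count filter (0.249) or without any 1 of 13 libraries. The rise in CD47- cells was not called without the low-count filter (0.0679) or with activation and TSP1 as additive terms (0.0546). Of the MNT counts, 40.9% belonged to MNT-209, an isoform annotated as a retained intron with no coding sequence. At 6 h against 1 h in WT cells MNT-209 was at -0.35 ± 0.18, while the coding isoform MNT-201 was at -0.03 ± 0.168, and neither was called. In CD47- cells MNT-201 rose by 0.61 ± 0.17 (adjusted p = 0.0325 in edgeR), and MNT-209 was at 0.15 ± 0.181, not called.

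At 3 h against 1 h no gene of the 9 passed the interaction test in edgeR with the low-count filter, beside 4.28% of all genes, while 2 had an unadjusted p under 0.05, beside 21.6%. DESeq2 called 1 (MXD1, adjusted p = 0.0319), beside 6.55%, and limma voom called 0. Without the filter edgeR called 3, MXD1 and MXD3 among them, beside 1397 of 41107 genes. With additive treatment terms it called MXD1, beside 462 of 16327 genes. MXD1 differed by 0.64 (adjusted p = 0.0689) and MNT by 0.48 (adjusted p = 0.0646), both with the sign that they had at 6 h. Over all genes edgeR called 698, and leaving out 1 library gave between 169 and 1066. These ends came without the 3 h CD3+CD28+TSP1 library of WT and of CD47- cells.

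The treatments were compared at matched times, with an effect shared by 1, 3 and 6 h, so a response at a single time was averaged with the others. Activation, taken as CD3+CD28+TSP1 against TSP1, called 0 of 9 genes in either line by edgeR, DESeq2 and limma voom. Both sides of this comparison held TSP1, which the paper describes as an inhibitor of T cell activation through CD47. It therefore does not measure activation in the absence of TSP1. In WT cells 0.0919% of all genes were called and in CD47- cells 0%. The WT share, 15 genes, depended on single WT libraries. It became 0 genes without the 1 h TSP1 or the 3 or 6 h CD3+CD28+TSP1 library, and 42 without the 6 h TSP1 library. TSP1 on activated cells, taken as CD3+CD28+TSP1 against CD3+CD28, also called 0 of 9 in each line by the 3 tools, with 0% of all genes called by edgeR. At an unadjusted p under 0.05 there were 0 genes in each WT comparison, beside 5% (activation) and 2.24% (TSP1) of all genes, and 2 in each CD47- comparison, beside 16.1% and 10.8%. In WT cells the log2 fold changes for activation ran from -0.14 to 0.14, and those for TSP1 from -0.16 to 0.30. In CD47- cells they ran from -0.20 to 0.43 and from -0.07 to 0.46.

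The upper ends in CD47- cells were those of MLXIP, with 0.43 ± 0.204 (adjusted p = 0.316) and 0.46 ± 0.203 (adjusted p = 0.459). Both were called without the low-count filter (adjusted p = 0.009 and 0.00404). They rest on the 86.5 CPM of the 3 h CD3+CD28+TSP1 library, beside 42.4 CPM with CD3+CD28 and 34.9 CPM with TSP1 at that time, and without it they were 0.04 and 0.05. The difference between the lines in the response to activation was called for 0 of 9 genes (0% of all genes), with 1 at an unadjusted p under 0.05 (beside 6.42% of all genes) and 0 by DESeq2 and limma voom.

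Isoforms were compared because MAX, MLX and MXD1 make proteins of different length from alternative exons. A total of 51 isoforms of the 9 genes had enough counts to be tested, and 23 of them held at least 10% of the counts of their gene. Isoform counts are estimates that RSEM divides among transcripts sharing most of their sequence, so differences between similar isoforms carry the error of that division.

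MAX was the clearest case, since its total level was flat while its isoforms changed places. MAX-205 (160 amino acids) and MAX-204 (151 amino acids) are the long and short forms of the standard MAX protein. They differ in a coding exon of 27 bases, or 9 codons, placed just before the basic region, at chr14:65101546-65101572 on the minus strand of GRCh38, which is shown because it sets the long form apart from the short one. In the annotation MAX-202 and MAX-206 hold this exon as well, so the shares below do not measure its inclusion.
MAX exon in MAX-205, absent from MAX-204: GAAGAGCAACCGAGGTTTCAATCTGCG
MAX-202 encodes 134 amino acids. MAX-206 holds a further exon of 85 bases (chr14:65077344-65077428) and is annotated as a target of nonsense-mediated decay.

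The share of MAX-205 in the isoform counts of MAX was 22.3, 17.9, 16 and 24.7% in the untreated, CD3+CD28, CD3+CD28+TSP1 and TSP1 libraries of WT cells at 1 h. It was 55.2, 48.1 and 49.3% with CD3+CD28, CD3+CD28+TSP1 and TSP1 at 3 h, and 54.1, 49.9 and 57.4% at 6 h. In CD47- cells it was 20.5, 12.8, 11.5 and 8.37% at 1 h, then 36.4, 31.5 and 43.3% at 3 h and 45.5, 41.4 and 34.8% at 6 h. The 1 h libraries stayed below all later libraries of the same line in both lines.

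In counts, MAX-205 rose from 15.1 ± 2.58 CPM at 1 h to 38.5 ± 3.27 CPM at 6 h in WT cells (SD, n = 4 and 3). The log2 fold change was 1.46 ± 0.214, with an adjusted p over all 55450 isoforms tested of 0.00128. In CD47- cells it rose from 9.9 ± 3.49 to 31.3 ± 4.58 CPM, with a log2 fold change of 2 ± 0.218 (adjusted p = 2e-04). Both calls were kept without any 1 of the 20 libraries.

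MAX-206 went the other way. Its share fell from 12.6 ± 2.8% at 1 h to 6.03 ± 0.753% at 3 h and 0.991 ± 1.72% at 6 h in WT cells, where it had no counts in the CD3+CD28 and TSP1 libraries. In CD47- cells it was 20 ± 2.38, 10.1 ± 0.364 and 7.21 ± 1.4%. The change in counts at 6 h was called in WT (log2 fold change -4.54 ± 1.11, adjusted p = 0.0207) and not in CD47- cells (log2 fold change -1.35 ± 0.891, adjusted p = 0.351). The WT call was lost when the 1 h CD3+CD28, 1 h TSP1, 6 h CD3+CD28 or 6 h TSP1 library of WT cells was left out. The fold changes of those fits are not given here, so the lost calls do not show a smaller fall.

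MAX-202 fell in both lines, by 0.70 ± 0.144 on the log2 scale in WT (adjusted p = 0.00881) and by 0.74 ± 0.144 in CD47- cells (adjusted p = 0.00574). The WT call was lost without the 6 h CD3+CD28+TSP1 library (-0.60). The short form MAX-204 was 34.9 ± 4.09% of the counts at 1 h and 26.1 ± 2.96% at 6 h in WT cells, and 29.1 ± 4.88% and 27.7 ± 3.16% in CD47- cells. Its counts were not called, with log2 fold changes of -0.44 ± 0.175 and -0.09 ± 0.175. Of these 4 isoforms, MAX-205 was therefore the one that rose, and MAX-202 fell in both lines.

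**Figure D4:**
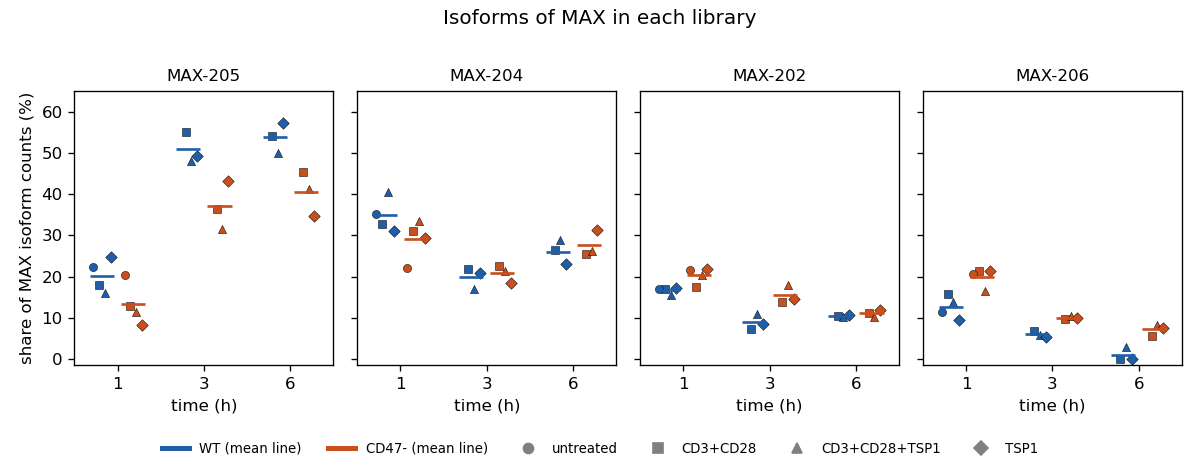
Share of the isoform counts of MAX held by MAX-205, MAX-204, MAX-202 and MAX-206 in each library, in percent, against time in h, with WT in blue, CD47- in orange, the treatment as the shape of the point and the mean of each line and time as a bar. The mean share of MAX-205 was 20.2% at 1 h and 53.8% at 6 h in WT cells, against 13.3% and 40.6% in CD47- cells, and MAX-206 was at 0 in 2 WT libraries at 6 h.

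Between the lines, the isoform shares were compared by a 2-sided permutation test with 100000 resamples, adjusted over the 23 isoforms. MAX-205 held 39.5 ± 17% in WT and 28.6 ± 14.1% in CD47- cells, MAX-206 held 7.17 ± 5.47 and 13.2 ± 6.17%, and MAX-202 held 12.5 ± 3.82 and 16.1 ± 4.34%. None was called without pairing, with adjusted p of 0.276, 0.131 and 0.157. With libraries paired by treatment and time, as the replicate block, all 3 were called in an exact sign-flip permutation test (adjusted p = 0.0112 each), MAX-205 lower and MAX-206 and MAX-202 higher in CD47- cells. In the counts, the block likewise called MAX-205 (log2 fold change -0.45, adjusted p = 0.0334) and MAX-202 (0.45, adjusted p = 0.0122), which were -0.37 (adjusted p = 0.528) and 0.42 (0.135) without it.

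Of the 51 isoforms, 7 were called between the lines, 6 higher and 1 lower in CD47- cells, beside 15.1% of all isoforms. With the replicate block 11 were called, and that block raised the calls over all genes from 6596 to 8957. At 6 h against 1 h, 8 were called in WT (5 higher and 3 lower, beside 14.9% of all isoforms) and 9 in CD47- cells (5 higher and 4 lower, beside 17.3%).

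The higher level of MLX in CD47- cells was carried by several isoforms. MLX-203 encodes 244 amino acids and MLX-202 encodes 214. They differ in a coding exon of 90 bases, or 30 codons, at chr17:42568470-42568559 on the plus strand, printed here because both forms were called.
MLX exon in MLX-203, absent from MLX-202: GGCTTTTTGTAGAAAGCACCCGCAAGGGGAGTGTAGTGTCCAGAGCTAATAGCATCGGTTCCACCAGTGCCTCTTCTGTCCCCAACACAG
MLX-203 was 64.1 ± 8.46 CPM in CD47- and 52.5 ± 4.93 CPM in WT cells, a log2 fold change of 0.31 ± 0.0914 (adjusted p = 0.0232). MLX-202 was 13.6 ± 4.05 and 6.96 ± 3.07 CPM, a log2 fold change of 1.01 ± 0.243 (adjusted p = 0.00612). MLX-204 (0.56) and MLX-207 (0.48), both annotated as retained introns with no coding sequence, were also higher. The share of MLX-203 was 70.8 ± 4.26% in WT and 66.1 ± 2.29% in CD47- cells, with an adjusted p of 0.0497 that rose to 0.0524 with the replicate block, and was called in 4 of the 20 fits that left out a library. That of MLX-202 was 9.39 ± 4.28 and 13.8 ± 2.31% (adjusted p = 0.0639).

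MLXIP-201 held 75.6 ± 2.42% of the counts of MLXIP in WT and 80.7 ± 2.83% in CD47- cells (adjusted p = 0.00299), and was called without any 1 of the 20 libraries. In counts it was higher in CD47- cells by 0.69 ± 0.15 on the log2 scale (adjusted p = 0.00239), and MLXIP-202 was higher by 1.01 ± 0.213 (adjusted p = 0.00196). MXI1-202, which encodes 295 amino acids from the first of the MXI1 promoters, held 12.2 ± 7.32% in WT and 24.8 ± 8.32% in CD47- cells (adjusted p = 0.036). Its counts were 1.76 ± 1.31 and 3.61 ± 1.9 CPM, not called without the block (log2 fold change 1.06, adjusted p = 0.0768) and called with it (1.15, adjusted p = 0.02). The share of MXI1-202 was called in 7 of the 20 fits that left out a library. With counts divided by transcript length, the share of MLXIP-201 was still called, while those of MXI1-202 (0.0517) and MLX-203 (0.0684) were not.

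The partners that these genes share MAX with were described next. In WT libraries MYC ranged from 22.1 to 31.1 CPM at 1 h, from 24.6 to 40.4 CPM at 3 h, and then from 83.3 to 85 CPM at 6 h. In CD47- libraries it was 48.3 to 64.1, 84.8 to 91.9 and 173 to 181 CPM. MYCN was at most 1.03 CPM in WT and 7.95 to 13.6 CPM in CD47- libraries, and MYCL was 1.91 to 2.81 and 5.65 to 13.9 CPM. All 3 were called higher in CD47- cells, with log2 fold changes of 1.15 ± 0.324 (MYC, adjusted p = 0.00673), 3.68 ± 0.146 (MYCN, 4.84e-15) and 1.99 ± 0.156 (MYCL, 5.48e-10). At 6 h against 1 h MYC rose in both lines, by 1.67 ± 0.112 in WT and 1.78 ± 0.109 in CD47- cells. MYCN rose in CD47- cells (0.65 ± 0.136, adjusted p = 0.00107) and was at -0.46 ± 0.23 in WT cells (adjusted p = 0.151), and this difference between the lines was called (1.11 ± 0.267, adjusted p = 0.0124). MYCL rose in CD47- cells (0.53 ± 0.168, adjusted p = 0.0163) and was at 0.08 ± 0.207 in WT cells, a difference that was not called (0.45 ± 0.267, adjusted p = 0.281).

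The balance of activators and a part of the repressors was described per length. The ratio was the summed TPM of MYC, MYCN and MYCL over the summed TPM of MXD1, MXD3, MXD4 and MXI1. MNT and MGA were not in the lower sum, so a ratio of 1 holds for this choice of genes only. At 6 h MGA alone was 23 to 24.2 TPM in WT and 24.4 to 26.1 TPM in CD47- libraries. The lower sum then had means of 27.2 TPM in WT and 17.4 TPM in CD47- cells. In WT cells the ratio of the MYC sum to the lower sum had means of 0.299 ± 0.0639 at 1 h, 0.587 ± 0.038 at 3 h and 1.36 ± 0.0414 at 6 h (SD, n = 4, 3 and 3). In CD47- cells it was 0.973 ± 0.0868, 2.02 ± 0.111 and 5.08 ± 0.415. The ranges of neighbouring times did not overlap in either line, and CD47- was above WT at each time. In WT cells the ratio of MAX to the sum of both groups had a mean of 0.664 ± 0.146 at 1 h, then 0.836 ± 0.132 at 3 h and 0.52 ± 0.0259 at 6 h, and the 1 h and 6 h ranges overlapped (0.531 to 0.832 and 0.504 to 0.55). In CD47- cells it was 0.585 ± 0.0997, 0.481 ± 0.0637 and 0.354 ± 0.01, and its 6 h range (0.346 to 0.365) lay below those at 1 and 3 h. These ratios concern mRNA, and protein was not measured here.

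**Figure D5:**
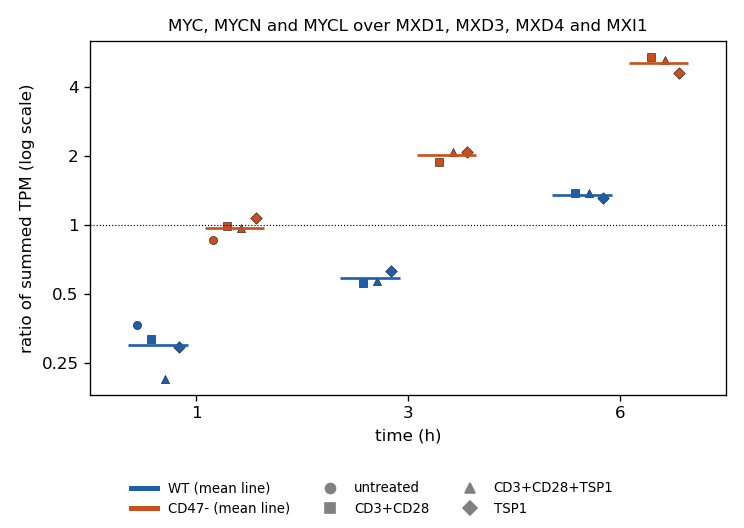
Ratio of the summed TPM of MYC, MYCN and MYCL to that of MXD1, MXD3, MXD4 and MXI1 in each library, on a log axis, against time in h, with WT in blue, CD47- in orange, the treatment as the shape of the point and the mean of each line and time as a bar. The dotted line marks equal sums of these genes, without MNT and MGA. The WT means rise from 0.299 to 1.36 while those of CD47- cells rise from 0.973 to 5.08.

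Of 22 genes known to be activated by MYC-MAX dimers, 16 rose and 2 fell between 1 and 6 h in WT cells, beside 25.7% higher and 24.8% lower of all genes, and the median change over the list was 0.60 on the log2 scale. In CD47- cells 19 rose and 1 fell, beside 26% and 27% of all genes, and the median was 1.05, beside a median over all genes of 0.00 in both lines. SRM, which makes spermidine, rose by 1.85 and 2.30 in WT and CD47- cells, and RRP9, a ribosome assembly factor, by 1.76 and 2.19. SHMT2, of mitochondrial serine metabolism, fell in WT cells (-0.70) and LDHA, lactate dehydrogenase, fell in both lines (-0.30 and -0.54). Between the lines 4 of the 22 were higher and 0 lower in CD47- cells, beside 19.8% and 20.6% of all genes, led by CCND2, a cyclin of early G1 (2.82), and CAD, of pyrimidine synthesis (0.53). With the replicate block, which pairs the libraries by treatment and time, 13 were higher and 1 lower, beside 27.2% higher and 27.6% lower of all genes in that fit.

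Of 17 genes of the SIN3-HDAC corepressor, through which the MXD proteins act, 8 fell and 2 rose at 6 h in WT cells, beside 24.8% lower and 25.7% higher of all genes. In CD47- cells 10 fell and 2 rose, beside 27% and 26%. The median log2 fold changes of the list were -0.19 and -0.43. ING2, a histone-reading subunit, fell by 1.21 and by 0.93 on the log2 scale, and ARID4A fell by 0.84 and by 0.81. SIN3B (0.74 and 0.62) and BRMS1 (0.49 and 0.61) rose. In the comparison of the lines 7 were lower and 1 higher in CD47- cells, beside 20.6% and 19.8% of all genes, with the histone-binding subunit RBBP7 (-0.93) and BRMS1L (-0.88) furthest down and HDAC2 (0.28) up. With the replicate block 12 were lower and 2 higher, beside 27.6% and 27.2% of all genes.

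Of 12 other subunits of the MGA complex PRC1.6, 4 rose and 3 fell at 6 h in WT cells, and 5 rose and 4 fell in CD47- cells. The WT counts lie near the 25.7% higher and 24.8% lower of all genes, and those of CD47- cells stand beside 26% and 27%. L3MBTL2, a subunit of this complex, rose with MGA, by 1.12 in WT and 1.33 in CD47- cells. The next were TFDP1 in WT (0.49) and RING1 in CD47- cells (0.43). RYBP (-1.03 and -0.81) and YAF2 (-0.68 and -0.83), which are shared with other Polycomb complexes, fell. Between the lines 0 were higher and 3 lower in CD47- cells (TFDP2 at -1.58 and RING1 at -0.36 among them), beside 19.8% and 20.6% of all genes. With the replicate block 2 were higher and 4 lower, beside 27.2% and 27.6%.

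Among 6 known targets of MLX-MLXIP dimers, 4 were higher and 0 lower in CD47- cells, beside 19.8% and 20.6% of all genes. TXNIP, the best known of them, was 28.7 to 36.5 CPM in WT and 122 to 143 CPM in CD47- libraries at 1 h, and 36.6 to 41.6 CPM against 143 to 155 CPM at 6 h. The log2 fold change between the lines was 1.99 ± 0.119 (adjusted p = 5.13e-12). That of its relative ARRDC4 was 1.43 ± 0.173 (adjusted p = 5.12e-07), with 5.22 to 6.26 CPM in WT and 15.9 to 20 CPM in CD47- libraries at 1 h. KLF10 (-0.64 ± 0.53, adjusted p = 0.356) and PFKFB3 (-0.25 ± 0.229, adjusted p = 0.417) were not called, and both had lower means in CD47- than in WT cells at 1 h (247 and 361 CPM for KLF10, 68.5 and 96 CPM for PFKFB3) and higher means at 6 h (37 and 30.9 CPM, 36.3 and 33.4 CPM). At 6 h ARRDC4 rose in both lines (0.97 and 0.72) and TXNIP in WT cells (0.31). KLF10 (-3.62 and -2.78) and PFKFB3 (-1.56 and -0.91) fell in both. Of all genes 25.7% rose and 24.8% fell in WT cells, and 26% and 27% in CD47- cells. Mean HK2 went from 59.9 to 40.9 CPM between 1 and 6 h in WT and from 97.1 to 107 CPM in CD47- cells. Mean ARRDC2 went from 28.8 to 24.9 CPM and from 37.3 to 40.9 CPM. MLXIPL, the other partner of MLX, had at most 6 counts in a library and at most 0.252 CPM.

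Of 11 other bHLHZ factors, 8 were tested. Between the lines 2 were lower in CD47- cells, SREBF2 (-1.25) and TFE3 (-0.44), and 0 were higher, beside 20.6% and 19.8% of all genes. With the replicate block 5 were lower and 2 higher, beside 27.6% and 27.2%. At 6 h 3 rose and 1 fell in each line, beside 25.7% higher and 24.8% lower of all genes in WT and 26% and 27% in CD47- cells. TFAP4, itself known as a MYC target, led in both (1.01 and 1.80), followed by USF3 in WT (0.92) and SREBF1 in CD47- cells (0.96). SREBF2 fell in WT (-0.46) and USF1 in CD47- cells (-0.37).

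The time course of early T cell activation genes was described beside that of MXD1 and MXI1. Of 11 such genes 11 fell by 6 h in WT cells, led by EGR2 (-5.50) and NR4A1 (-5.07), beside 24.8% of all genes. In CD47- cells 10 fell, led by EGR2 (-3.88) and EGR1 (-3.75), beside 27%. Between the lines 6 were lower in CD47- cells, led by CD69 (-2.33) and NR4A1 (-2.19), beside 20.6% of all genes, and 8 with the replicate block, beside 27.6%. In the comparison of CD3+CD28+TSP1 with TSP1, 6 of the 11 rose in WT cells, among them CD69 (2.04) and EGR1 (2.03), beside 0.0919% of all genes called in either direction, and 0 in CD47- cells, beside 0%. These 6 calls were lost when the 1 h TSP1 library or the 3 or 6 h CD3+CD28+TSP1 library of WT cells was left out. In those fits 0 of all genes were called, and 1 was called without the 1 h CD3+CD28+TSP1 library of WT cells. MXD1 and MXI1 in the untreated WT library (31.6 and 20.2 CPM) lay within the range of the other WT libraries at 1 h. In the untreated CD47- library MXD1 was 20.7 CPM, below the 21.6 to 24.8 CPM of the other 1 h CD47- libraries. MXI1 was 21 CPM there, above their 19.1 to 20.3 CPM. The part of the activation genes in the fall of MXD1 and MXI1 was not tested.

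The genes whose pattern over the 20 libraries was most like that of the 3 most variable members were sought among 13150 genes above a minimum mean level. The libraries share line, time and treatment, so these correlations are a description. For MXD3 they were TMPO-AS1 (Pearson r = 0.923), CREBZF (0.918) and PACSIN2 (0.9). For MXD1 they were ANP32B (0.957), MSH5 (0.944) and MCM6 (0.943), and for MXI1 they were EIF4B (0.962), AC112482.2 (0.957) and CREBRF (0.956). Within the lines these values lay between 0.769 and 0.991. Among the members themselves, MXD1 and MXI1 were most alike (r = 0.868), and MXD3 and MLX were most opposed (r = -0.778).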

How the data were processed

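The authors deposited expected counts from RSEM 1.3.3, made after adapter trimming (Cutadapt 1.18) and STAR 2.4.2a alignment to GRCh38 with the GENCODE v36 annotation, for 60719 genes and 232184 isoforms, per the labels and the study's methods. The strand setting is not given in the sources used here. Of the columns in each file, 2 belonged to no sample and were not used. Expected counts were rounded for edgeR 4.0.16 (R 4.3.3) and DESeq2 1.42.0, and used unrounded for limma 3.58.1 voom. Genes were filtered by a minimum count of 10 (16327 genes and 55450 isoforms kept). The lines were compared over all 20 libraries, and times and treatments in a single model holding every line and treatment combination plus line-specific terms for 3 h and 6 h. In that model the untreated library of each line has its own term. It does not inform the time or treatment comparisons, so leaving it out is no test of them. CPM used TMM-scaled totals, with a floor of 3 counts at 0.0979 to 0.156 CPM, which covers counting error only. TPM were computed from isoform counts and annotated GENCODE v44 transcript lengths. Totals were 20483642 to 31737616 counts in WT and 16107921 to 28525524 in CD47- libraries.

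Libraries of the lines with the same treatment and time form 10 matched pairs, whose deviations from the line means correlated at 0.126 to 0.602, so they were treated as pairs in the replicate block. The replicate block changed no call of the 9 genes between the lines. The 9 genes and the lists were chosen with earlier results of these data known. Genes of the lists are named as the largest called changes in each direction, and the likeness was taken for the 3 members with the largest SD of log2 CPM. The isoform time tests and the MYC to MXD ratios were added after seeing the data. On simulated data the tests recovered 94 to 98% of 2-fold and 100% of 4-fold changes over the 3 comparisons simulated. One B cell marker is not reported here.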

Additional observations from a re-analysis of the deposited data

Results flagged for a closer look

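The CD3+CD28+TSP1 library of CD47- cells at 3 h lay apart from the other 9 CD47- libraries in 3 values. MAX was 60 CPM there, MLXIP was 86.5 CPM, and MLXIP-201 held 87.8% of the MLXIP counts. In TPM, MAX was 42.2 there, within the 34.7 to 44 TPM of the CD47- libraries, so its gap was seen in CPM only. MLXIP was 20.9 TPM there, the highest of the CD47- libraries. In all, 82 groups of libraries were examined for such a gap, and chance alone gives about 1 in 20. This library had the lowest total, the largest TMM factor (1.2) and the lowest median Spearman correlation with its line (0.9677). The part of any of them in these values was not tested.

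The time course differed between the lines in a test of the difference itself for MXD1 (0.66 on the log2 scale, adjusted p = 0.0259 in edgeR) and for MNT (0.6, adjusted p = 0.00912 in edgeR).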

How the results depend on the processing

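The 4 genes called between the lines were called in all 6 alternatives and without any 1 library. Without the low-count filter, 1 of the 9 genes was called for CD3+CD28+TSP1 against TSP1 and 1 against CD3+CD28 in CD47- cells, beside 538 and 401 of 41107 genes. The difference between lines at 3 h was called for 3 of the 9 without that filter (beside 1397 of 41107 genes). DESeq2 called 1 there (beside 1069 of 16327) and additive treatment terms 1 (beside 462 of 16327). Isoforms called between the lines were 12 in DESeq2, 11 in voom, 11 with the replicate block and 16 with a time term. The share of all isoforms called in those fits is not given here. Over all genes the calls were 6596 in the main fit and 6997, 6855, 8957 and 9604 in those fits. Isoform shares called were 3, or 1 (MLXIP-201) by length and 5 with the replicate block. Signs turned for values near 0: MXI1 between the lines in voom (-0.0185), MXD4 at 3 h in WT with upper-quartile factors (0.0066) and additive terms (0.0173), MLX at 3 h in WT in voom (0.0045), MAX-204 between the lines in DESeq2 (0.0034), voom (0.0124), with the replicate block (0.009) and a time term (0.0143), and at 6 h in CD47- with additive terms (0.0119), and MLXIP-201 at 6 h in CD47- with additive terms (-0.061). The cause was not tested. Leaving out 1 library gave 2 to 5 genes at 3 h and 4 to 7 at 6 h in WT, 0 to 1 and 1 to 2 for the difference between lines at 3 and 6 h, 4 to 10 isoforms at 6 h in WT and 1 to 4 isoform shares. The 4 genes at 6 h in WT came without the WT CD3+CD28 or CD3+CD28+TSP1 library at 1 h or any WT library at 6 h. Such omissions moved MXI1 between the lines from -0.0682 to 0.1069, MXD4 at 3 h in WT from -0.1671 to 0.1416, MLX at 3 h in CD47- from -0.1067 to 0.1588, MLXIP at 3 h in CD47- from -0.2004 to 0.4854, MAX and MLXIP at 6 h in CD47- from -0.0569 to 0.0712 and from -0.2559 to 0.2179, MAX-204 between the lines from -0.0774 to 0.0808 and at 6 h in CD47- from -0.2074 to 0.0409, MLX-202 at 6 h in WT from -0.5435 to 0.3426, and MLXIP-201 at 6 h in CD47- from -0.1536 to 0.3247.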
